A study of Arabidopsis thaliana with 24 samples.

Results

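The polysomal and total RNA of unstressed dcp5-1 seedlings were compared, using 6 of the 24 libraries of the series and 20964 of the 38088 genes in the deposited table. The 6 libraries were 3 of polysomal RNA and 3 of total RNA, chosen by their column names. The genes were those with at least 1 FPKM (fragments scaled to transcript length and to library size) in at least 3 of the 24 libraries. Seedlings were Arabidopsis thaliana, 5 days old, of the mutant dcp5-1, rested in liquid medium for 30 min and sampled at 0 min of 150 mM NaCl (T0). Polysomal RNA came from pooled polysome fractions of a sucrose gradient, and total RNA came from the input lysates. The other libraries used for comparison were dcp5-1 at 15 min of 150 mM NaCl (T15) and the wild type Col-0 at T0, again with 3 polysomal and 3 total RNA libraries each. All groups had the same age, growth and rest, and the 30 min in liquid medium preceded the T0 samples too.

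A polysome is a messenger carried by several ribosomes at once, and it sinks faster in sucrose than free messengers or single ribosomes. The ratio of a messenger's polysomal to its total level is therefore a common measure of how far it is loaded with ribosomes, and it rises with the share of its copies on polysomes. DCP5 is a cytoplasmic partner of the decapping enzyme, which removes the cap of messengers before their decay, and it is known in Arabidopsis for its place in processing bodies, where untranslated messengers gather. Here the polysome association of a gene is its mean log2(FPKM + 1) on polysomes less its mean log2(FPKM + 1) in total RNA. FPKM are relative to each library, so an association above 0 means a larger part of the polysomal library than of the total RNA library. The total amount of RNA on polysomes was not measured by these values.

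Several points limit the groups as a model. The columns with the suffix IP were read as polysomal RNA, which the table does not define, and all signs below would turn round if that reading were wrong. Column numbers are not tied to the replicate numbers of the labels, and the ecotype given for dcp5-1 changes by 1 number from sample to sample, which was read as a filling error. The labels do not say that the 3 libraries of a group came from separate cultures, so p-values measure the spread between these libraries, which may be technical. Whole seedlings were used, and fewer cells of a type cannot be told apart from less RNA per cell.

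Implied depth was 16780000 to 17580000 fragments in the polysomal and 17900000 to 18380000 in the total RNA libraries of dcp5-1 at T0. Replicates were close: among 10118 genes with a mean of at least 10 FPKM, the median coefficient of variation was 4.10% in polysomal and 4.51% in total RNA. Leaf and root markers were both present. The leaf genes LHCB6 and RCA lay at 1147 FPKM or more in all 6 libraries, as did the root gene PYK10, whereas the root hair genes EXPA7, EXPA18, COBL9 and RHD2 lay at 0.836 to 4.67 FPKM. RBCS1A, a small subunit gene of Rubisco, was listed at 0 in all 6 libraries. Such a value cannot tell absence of the transcript apart from a loss in mapping or counting. DCP5 itself (AT1G26110, TAIR10.1 chromosome 1, 9024341 to 9027955, minus strand) had 20.4, 21.4 and 20.1 FPKM in polysomal RNA of dcp5-1, against 13.0, 13.0 and 13.2 FPKM in total RNA. Its association was 0.62 ± 0.04 (SE; adjusted p = 1.0e-11). In Col-0 its level was 92.3, 91.8 and 90.7 FPKM on polysomes and 48.5, 51.7 and 52.1 FPKM in total RNA. The residual DCP5 transcript of the mutant was thus 1 of the genes higher on polysomes.

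Most messengers of dcp5-1 were unequally shared between the fractions. Of the 20964 genes tested, 14929 passed an adjusted p of 0.05 (71.2%). Of these, 7309 were higher on polysomes (34.9% of the genes tested) and 7620 were lower (36.3%). At 2-fold or more, 1571 were higher (7.49%) and 1064 were lower (5.08%). The median association over all genes was -0.04, and the 5th and 95th percentiles were -1.03 and 1.18. For 7709 genes (36.8%) all 3 polysomal libraries lay above all 3 total RNA libraries, and for 8036 (38.3%) all 3 lay below. Scaling to nuclear genes alone moved the association of single genes up by a median of 0.12, and the median association became 0.06. The share of higher calls among all calls became 58.4%, against 49.0% without that scaling.

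**Figure D1:**
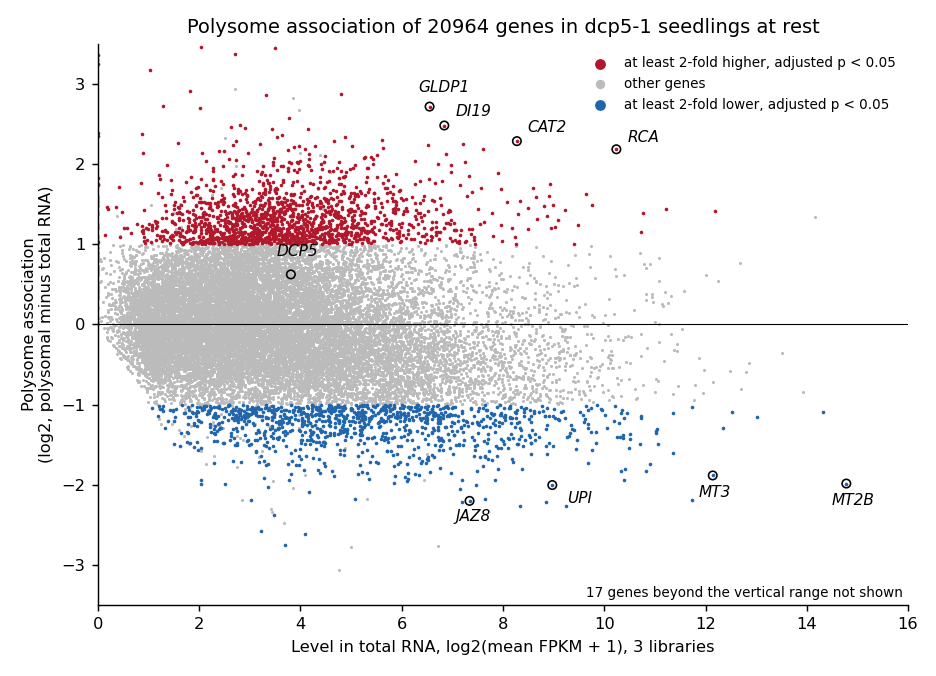
Polysome association (log2, polysomal minus total RNA, vertical axis) of 20964 genes against the log2 level in total RNA of dcp5-1 at T0 (horizontal axis); coloured points passed an adjusted p of 0.05 at 2-fold or more. Genes of large association in either direction occur at low and at high levels, with MT2B on the far right, and 17 genes beyond 3.5 in either direction are not shown.

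Genes were named by size of association among nuclear coding genes with a symbol, an adjusted p under 0.05, a mean of at least 10 FPKM, a transcript of at least 300 nt and no overlap of values between the fractions. Outside these limits other genes lay as far out or further. The 12 largest positive values within them belonged to genes with coding sequences of 621 to 3114 nt. GLDP1 (AT4G33010, chromosome 4, 15926652 to 15931422, minus strand), a subunit of the glycine decarboxylase of photorespiration, had 606, 624 and 619 FPKM on polysomes, against 92.9, 94.0 and 91.3 FPKM in total RNA, an association of 2.72 ± 0.05 (SE; adjusted p = 6.0e-20). All 3 polysomal values lay far above all 3 total RNA values. DI19 (AT1G56280, chromosome 1, 21072855 to 21074877, minus strand), a drought-induced zinc finger protein, had 629, 694 and 599 FPKM on polysomes, against 116, 109 and 117 FPKM in total RNA, an association of 2.48 ± 0.07 (SE; adjusted p = 4.7e-18). TGG2, a myrosinase that cleaves glucosinolates, followed with 97.5, 93.7 and 95.1 FPKM on polysomes, against 18.0, 15.1 and 17.4 FPKM in total RNA (2.44 ± 0.05, SE; adjusted p = 2.1e-19). CAT2, the catalase of leaf peroxisomes, was the most abundant of the 12 with 1508, 1531 and 1495 FPKM on polysomes, against 303, 309 and 315 FPKM in total RNA (2.29 ± 0.05, SE; adjusted p = 1.1e-19).

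The other 8 of these 12 positive values ranged from 2.22 to 2.33. They were the chloroplast chaperone cpHsc70-2 (2.33), the thylakoid protease VAR2 (2.30), the thiamine synthesis enzyme THIC (2.29), the subtilase ATSBT5.2 (2.28), RABE1b (2.25), annotated as a RAB GTPase homolog, DHS2 (2.23), which opens the shikimate pathway, the mitochondrial chaperonin HSP60 (2.22) and the proton-pumping pyrophosphatase AVP1 (2.22). ATSBT5.2 was the least abundant, with 29.7, 32.4 and 32.1 FPKM on polysomes, against 5.48, 5.32 and 6.16 FPKM in total RNA. RABE1b is wholly overlapped by a noncoding gene on the other strand, and VAR2 and AVP1 are partly overlapped. Whether the counting used strand is not given in the sources used here, so reads of such pairs may have been mixed.

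The 12 largest negative values within the same limits belonged to genes with coding sequences of 141 to 516 nt. JAZ8 (AT1G30135, chromosome 1, 10596352 to 10597341, plus strand), a repressor of jasmonate signalling, had 32.2, 37.2 and 33.4 FPKM on polysomes, against 160, 160 and 162 FPKM in total RNA, an association of -2.20 ± 0.10 (SE; adjusted p = 2.6e-14). MT2B (AT5G02380, chromosome 5, 506498 to 507244, minus strand), a metallothionein that binds metal ions, had 7673, 7094 and 6481 FPKM on polysomes, against 27377, 25064 and 32012 FPKM in total RNA, an association of -1.99 ± 0.10 (SE; adjusted p = 7.6e-14). A second metallothionein, MT3, had 1242, 1193 and 1229 FPKM on polysomes, against 4297, 4392 and 4876 FPKM in total RNA (-1.89 ± 0.07, SE; adjusted p = 1.4e-16). These abundant messengers were therefore several times scarcer in the polysomal libraries, with no overlap. The protease inhibitor UPI had 138, 125 and 110 FPKM on polysomes, against 491, 461 and 554 FPKM in total RNA (-2.01 ± 0.08, SE; adjusted p = 6.5e-16).

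The other 8 of these 12 negative values ranged from -2.18 to -1.67. They were the defensin PDF1.5 (-2.18), the centrin CEN2 (-1.95), PROPEP4 (-1.89), the precursor of a danger peptide, the small MYB-related protein RL4 (-1.88), the small peptide gene RTFL12 (-1.85), the arabinogalactan peptide AGP40 (-1.83), SDH8 (-1.69), a small subunit of mitochondrial complex II, and RALFL33 (-1.67), the precursor of a growth-regulating peptide. The levels of PDF1.5 and AGP40 were low on polysomes, with 7.57, 4.74 and 7.39 FPKM for PDF1.5 and 7.22, 4.99 and 5.82 FPKM for AGP40. In total RNA these genes had 30.1, 33.5 and 34.8 FPKM (PDF1.5) and 26.0, 24.6 and 20.6 FPKM (AGP40). RALFL33 and MT3 are partly overlapped by a noncoding gene on the other strand.

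**Figure D2:**
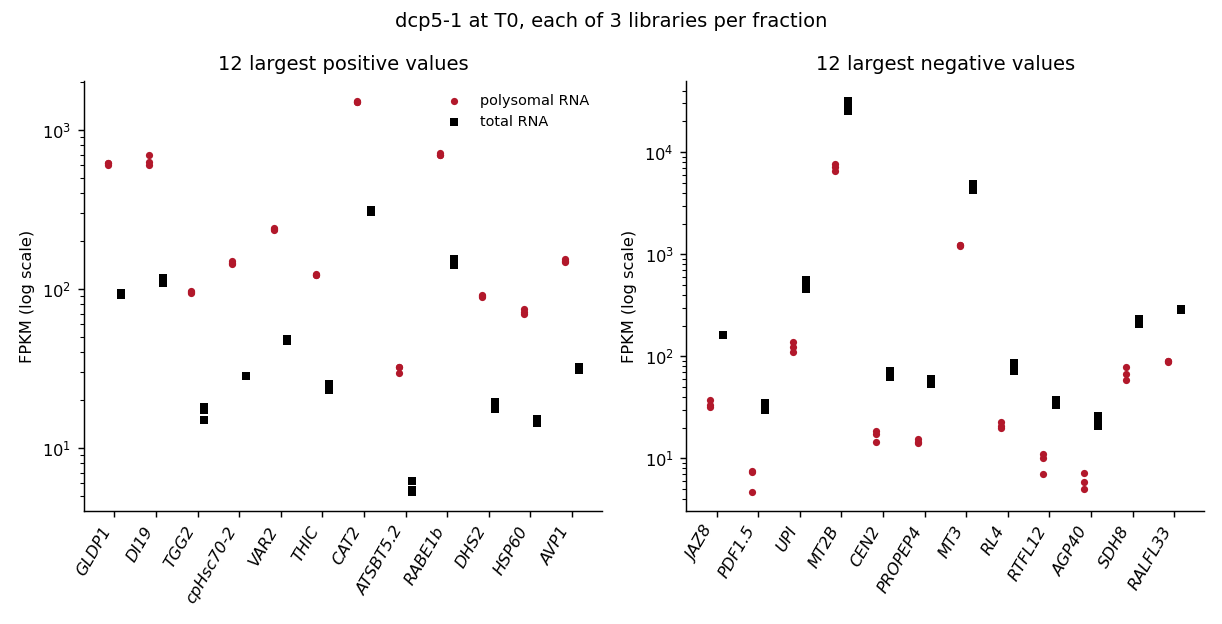
FPKM (log scale) of each of the 3 polysomal libraries (red circles) and 3 total RNA libraries (black squares) of dcp5-1 at T0, for the 12 genes of largest positive (left) and the 12 of largest negative association (right) among nuclear coding genes with a symbol, a mean of at least 10 FPKM, a transcript of at least 300 nt and fractions that do not overlap. By that choice circles and squares overlap in no gene, and replicate points of a fraction lie close together next to the gap between fractions.

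The start codons of the first 6 genes of each direction with an annotated stretch are shown, because the bases around the ATG bear on how well a start codon is recognised and the named genes of both directions can be set side by side. Each line gives 12 bases before the ATG, the ATG in capitals and 4 bases after it, from the RefSeq annotation of TAIR10.1.
GLDP1: ccttttttcccaATGgagc
DI19: ttacttggctagATGaaat
TGG2: cacaaggcttccATGcaac
cpHsc70-2: tcatttccaaccATGgctt
VAR2: ttttcttctttgATGaatt
CAT2: cctttgcaattgATGatga
JAZ8: tattcttacaacATGaagc
PDF1.5: aagtagtaagtcATGgcta
UPI: tttataaataccATGtttg
MT2B: tctagaaaaaacATGtctt
PROPEP4: ttgaagaaaaacATGgaga
MT3: aaaaactcaatcATGtcaa
The stretches lie at chr4:15931144-15931162 (minus strand) for GLDP1, chr1:21074263-21074281 (minus) for DI19, chr5:9072718-9072736 (plus) for TGG2, chr5:20303458-20303476 (plus) for cpHsc70-2, chr2:13174668-13174686 (plus) for VAR2 and chr4:16702949-16702967 (minus) for CAT2. Those of the genes with negative values lie at chr1:10596504-10596522 (plus) for JAZ8, chr1:20517066-20517084 (plus) for PDF1.5, chr5:17508662-17508680 (minus) for UPI, chr5:507158-507176 (minus) for MT2B, chr5:3122778-3122796 (plus) for PROPEP4 and chr3:5181319-5181337 (minus) for MT3. An A as the base 3 before the ATG, as in ANNATG, was carried by 3 of the 11 genes named for positive values that have an annotated stretch and by 8 of the 11 named for negative values. These are few genes, and the whole table gives the fuller picture.

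Over the whole table the A was commoner at both ends of the ranking by association. It was present at 48.6% of 18672 annotated start codons, and a G right after the ATG, as in ATGG, at 56.7%. Both together, as in ANNATGG, were present at 25.3%. With genes ranked by association and cut into 10 classes of equal size, the share with the A was 52.6% in the lowest class, 45.9% to 49.3% in the 8 between and 55.1% in the highest class. The share with the G was 55.9% in the lowest class and 61.4% in the highest. Once the dependence on length and GC was taken out, the lowest class had the A in 44.7% and the highest in 54.3%. The letters were read on the coding strand at annotated starts only, and they describe sequence, not use of the start.

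Length of the coding sequence went with association more closely than any other feature examined. Across 19442 protein-coding genes the Spearman correlation with association was 0.56 for coding sequence length, 0.50 for transcript length, 0.37 for GC content and 0.26 for the number of exons. It was 0.04 for the 5' leader length, 0.03 for the 3' untranslated length, -0.03 for the mean level and, over 19429 genes, -0.06 for the number of upstream ATG triplets. These describe genes of the same 6 libraries, which share depth and base composition, and genes are not independent replicates. The median coding sequence was 1575 nt in genes at least 2-fold higher on polysomes, 354 nt in genes at least 2-fold lower, and 1125 nt in all coding genes tested.

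The rise of association with coding length was steep among short messengers and flat beyond 1500 nt. In the 808 genes with a coding sequence under 300 nt the median association was -0.92, and 43.2% were at least 2-fold lower on polysomes. It was -0.70 at 300 to 449 nt, -0.51 at 450 to 599 nt and -0.24 at 600 to 899 nt. It was 0.07 at 900 to 1199 nt, 0.23 at 1200 to 1499 nt, 0.32 at 1500 to 2099 nt and at 2100 to 2999 nt, and 0.28 at 3000 nt or more. At 1500 to 2099 nt, 15.6% of genes were at least 2-fold higher.

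**Figure D3:**
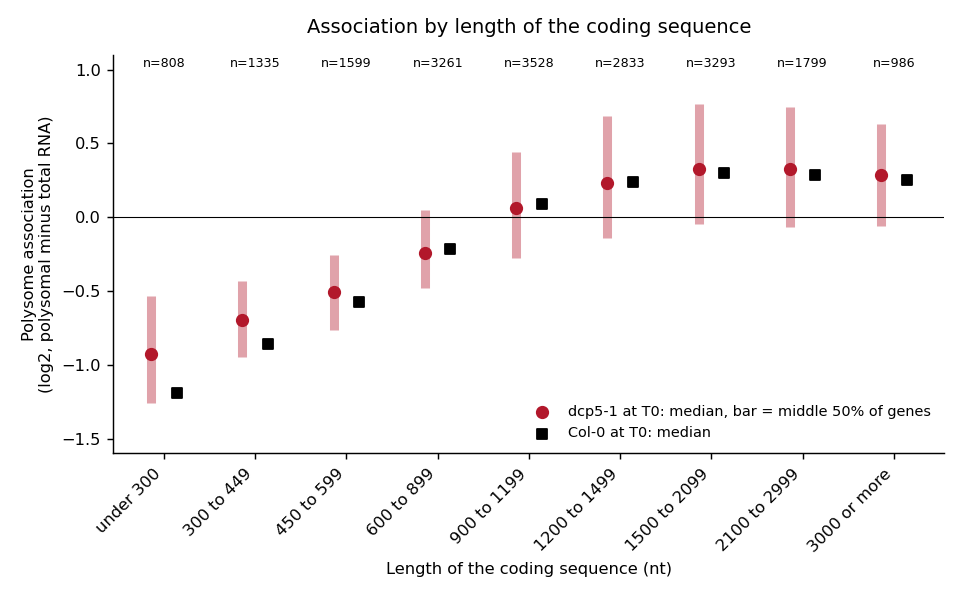
Median polysome association (log2) by length of the coding sequence in dcp5-1 at T0 (red circles, with bars for the middle 50% of genes) and in Col-0 at T0 (black squares), with the number of genes above each class. Medians in dcp5-1 run from -0.92 under 300 nt to 0.32 at 1500 to 2999 nt, and the Col-0 medians lie lower in the shortest classes (-1.19 under 300 nt).

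At equal transcript length, association followed the length of the coding part. Transcripts of like length were cut into 3 classes of equal size. Among transcripts of 1000 to 1399 nt, the median association was -0.47 in the class with the shortest coding sequences, -0.20 in the middle class and -0.01 in the class with the longest. Among transcripts of 1400 to 1799 nt it was -0.13, 0.20 and 0.24 in the same order, and among those of 1800 to 2199 nt it was 0.02, 0.36 and 0.35. Conversely, at a coding sequence of 900 to 1199 nt the medians of the classes with the shortest, middle and longest untranslated parts were 0.04, 0.17 and -0.01, with no steady order. The FPKM hold a correction for fragment length that differed between the fractions, at 266 to 272 nt in polysomal and 252 to 258 nt in total RNA libraries. This bears most on the shortest transcripts, and its part in the trend was not tested.

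Upstream ATG triplets, at which ribosomes can start before they reach the main coding sequence, went with lower association among longer messengers, though hardly so over all coding genes, as given above. In genes with a coding sequence of at least 900 nt the median association was 0.36 with no upstream ATG (4077 genes), 0.27 with 1 (2546 genes), 0.17 with 2 to 3 (2881 genes) and 0.03 with 4 or more (2461 genes). The order held within leaders of like length. With leaders of 200 to 299 nt the medians were 0.48, 0.28, 0.23 and 0.17 in the same order, and with leaders of 300 to 499 nt they were 0.45, 0.30, 0.16 and 0.04. Of the 70 genes of that coding length at least 2-fold lower on polysomes, 75.7% had an upstream ATG and 32.9% had 4 or more. Of the 1418 at least 2-fold higher, 56.7% had an upstream ATG and 12.3% had 4 or more, next to 65.9% and 20.6% of all 11965.

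**Figure D4:**
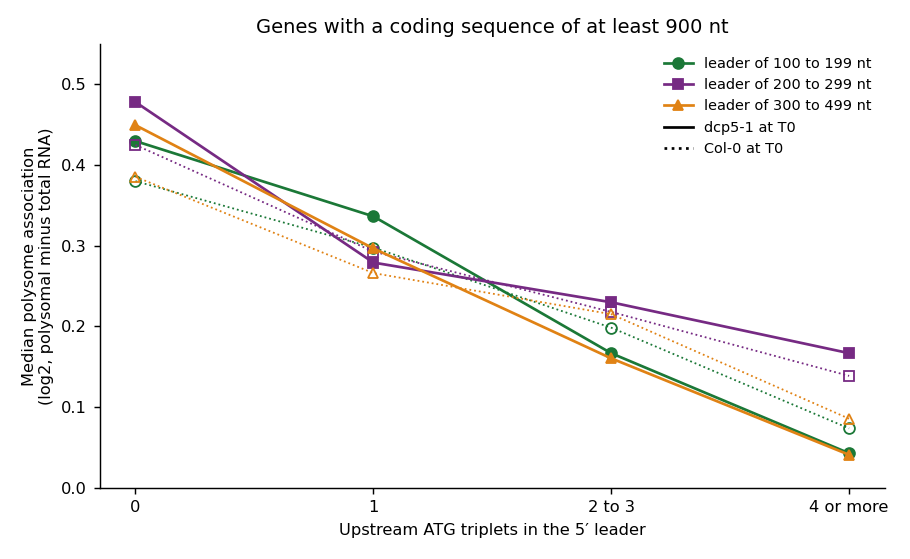
Median polysome association (log2) of genes with a coding sequence of at least 900 nt against the number of upstream ATG triplets in the annotated 5' leader, for 3 classes of leader length, in dcp5-1 at T0 (filled, solid lines) and Col-0 at T0 (open, dotted lines). All 6 lines fall from left to right, from 0.38 to 0.48 with none to 0.04 to 0.17 with 4 or more.

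Messengers known for regulatory upstream reading frames were poorly loaded as a group. Of the 27 in the list 22 were lower on polysomes and 3 were higher, with a median association of -0.63 against -0.04 over all genes. The bHLH gene AT1G29950, with 17 upstream ATG triplets, had 18.2, 17.8 and 18.5 FPKM on polysomes, against 51.4, 52.3 and 52.0 FPKM in total RNA (-1.46 ± 0.05, SE; adjusted p = 7.4e-17). MYB34, a regulator of indole glucosinolate synthesis with 7 upstream ATG triplets, had 78.5, 78.1 and 73.2 FPKM on polysomes, against 180, 188 and 184 FPKM in total RNA (-1.25 ± 0.04, SE; adjusted p = 2.0e-16). The exceptions were led by PHO1, a phosphate exporter, at 0.82, and by the auxin response factor MP at 0.38. The list's coding sequences were of middling length, and its median was -0.69 with the trend on length and GC content removed, where MP, at 0.08, did not pass (adjusted p = 0.33).

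Some genes stood against the length trend, and the following were chosen after their values were seen. The long messengers PLDGAMMA2, a phospholipase D with 22 upstream ATG triplets, TRFL1, a telomere repeat-binding protein with 9, and CRK42, a receptor-like kinase with 8, had associations of -1.17, -1.11 and -1.08. CRK42 had 21.6, 21.6 and 21.1 FPKM on polysomes, against 45.9, 49.4 and 44.2 FPKM in total RNA. RIK, a KH-domain RNA-binding protein, had no upstream ATG in its annotated leader and an association of -1.05. Among short messengers, TCTP (translationally controlled tumour protein, coding sequence 507 nt) had 4711, 4654 and 4202 FPKM on polysomes, against 1722, 1675 and 1790 FPKM in total RNA (1.39 ± 0.08, SE; adjusted p = 1.0e-12). DI21 (315 nt), a drought-induced protein, and ARFA1E (546 nt), a small GTPase of vesicle traffic, were also higher, at 1.08 and 1.01. DI19, described above, has a coding sequence of 621 nt and 5 upstream ATG triplets and also stood against both trends.

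Messengers of the translation machinery split by the kind of part they encode, and these parts also differed in coding length. Over all genes 34.9% were higher on polysomes and 36.3% were lower. Of 38 translation factor genes 31 were higher on polysomes and 6 were lower, with a median of 0.95. Within them, all 10 genes of eIF3, eIF4A and eIF4G, which load the small ribosomal subunit on messengers, were higher (median 1.27), as were 9 of 10 genes of elongation factor 1 (1.17). All 5 genes of the cap-binding proteins eIF4E and eIFiso4E and of eIF5A, which are small proteins, were lower (-0.67). The median coding sequences of these parts were 2230.5, 1243.5 and 480 nt in that order. With the trend on length and GC content removed their medians were 0.80, 0.78 and -0.38, and that of the whole list 0.61. EIF4G had 13.5, 14.7 and 15.0 FPKM on polysomes, against 4.03, 3.73 and 3.84 FPKM in total RNA (1.66), and EIF4A-2, an RNA helicase, also lay at 1.66. FBR12, an eIF5A gene, had 1144, 1150 and 1118 FPKM on polysomes, against 2025, 1980 and 2129 FPKM in total RNA (-0.85). EIF4E lay at -0.74.

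Ribosomal protein messengers leaned the other way from the factors, beside 34.9% higher and 36.3% lower over all genes. Of 58 genes of cytosolic ribosomal proteins 12 were higher on polysomes and 33 were lower, with a median of -0.26. The lower members were mainly the short ones: of 32 with a coding sequence under 600 nt, 26 were lower and 1 was higher (median -0.51), whereas of 26 longer ones 7 were lower and 11 were higher (0.08). RP1, a protein of the large subunit, had the highest value at 1.70, and RS27A, of the small subunit, the lowest at -1.41. RS27A had 516, 465 and 457 FPKM on polysomes, against 1184, 1274 and 1368 FPKM in total RNA. With the trend on length and GC content removed the list's median was 0.09, with 26 higher and 19 lower, so its sign depends on that step. With scaling to nuclear genes 19 were higher and 30 were lower. Ribosomal proteins are encoded by small families of like genes, whose reads may have been split between copies.

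Ribosome biogenesis genes were higher in 14 of 15 cases and lower in 0 (median 0.57), led by the nucleolin NUC-L1 at 1.35. Over all genes 34.9% were higher and 36.3% were lower. With the trend on length and GC content removed, 12 of the biogenesis genes were higher and 0 were lower (0.45). Of 50 genes described as aminoacyl-tRNA synthetases, which join amino acids to transfer RNAs, 33 were higher and 12 were lower (median 0.84). With that trend removed the median of the synthetase list was 0.49. This list was taken from gene descriptions and holds short genes that may be fragments or relatives: of 35 with a coding sequence of at least 1200 nt, 31 were higher and 1 was lower, whereas of 15 shorter ones 2 were higher and 11 were lower. AT1G29880, a glycyl-tRNA synthetase, had 57.1, 54.6 and 53.5 FPKM on polysomes, against 13.5, 13.7 and 14.1 FPKM in total RNA (1.93). Splits of lists by part or by length, here and below, were made after the values were seen.

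Of 44 nuclear genes of the photosystems and their antennae 24 were higher on polysomes and 13 were lower, with a median of 0.27. Over all genes 34.9% were higher and 36.3% were lower. Of 17 light-harvesting genes, which bind chlorophyll around the photosystems, 16 were higher and 0 were lower (0.75). Of 11 subunit genes of photosystem I 2 were higher and 8 were lower (-0.42), and with the trend on length and GC content removed their median was -0.09. Of 9 subunit genes of photosystem II 4 were higher and 3 were lower (0.11), near the shares over all genes. CAB1, a light-harvesting gene, had 12808, 12551 and 12053 FPKM on polysomes, against 4558, 4818 and 4599 FPKM in total RNA (1.42), and ATPC1, a subunit of the chloroplast ATP synthase, lay at 1.53. PSAE-1, of photosystem I, had 1316, 1198 and 1139 FPKM on polysomes, against 2443, 2708 and 2694 FPKM in total RNA (-1.10). The light-harvesting genes have near-identical copies, and the share of each copy is uncertain.

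The carbon-fixing enzymes of the Calvin cycle had the highest median of the 15 lists plotted. Of 12 genes 11 were tested, 7 were higher and 4 were lower, beside 34.9% higher and 36.3% lower over all genes. The median was 1.35, and 0.94 with the trend on length and GC content removed. RCA, which activates Rubisco, had 5535, 5521 and 5430 FPKM on polysomes, against 1202, 1275 and 1147 FPKM in total RNA (2.19 ± 0.06, SE; adjusted p = 5.0e-18). PRK, the phosphoribulokinase, had 892, 903 and 888 FPKM on polysomes, against 238, 237 and 245 FPKM in total RNA (1.90). The lower members included the Rubisco small subunit genes: RBCS2B had 4905, 5153 and 4100 FPKM on polysomes, against 6904, 7854 and 6663 FPKM in total RNA (-0.60). Small subunit genes are near-identical copies too.

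Chaperones and secondary metabolism were well loaded, beside 34.9% higher and 36.3% lower over all genes. Of 16 heat shock and endoplasmic reticulum chaperone genes tested 11 were higher and 3 were lower (median 1.19). SHD, the Hsp90 chaperone of the endoplasmic reticulum, had 96.8, 100 and 105 FPKM on polysomes, against 24.7, 25.2 and 26.0 FPKM in total RNA (1.95), and CNX1, a calnexin, lay at 1.85. The small heat shock gene HSP17.4 was the lowest, at -0.95. Of 12 glucosinolate and myrosinase genes 10 were higher and 2 were lower (1.12), and the lower ones were the regulators MYB29 (-0.91) and MYB28 (-0.72), with 10 and 5 upstream ATG triplets. Of 20 nuclear-encoded mitochondrial genes 15 were higher and 4 were lower (0.67), led by GLDP1, while the small electron carrier CYTC-2 was the lowest at -1.38. Of 18 aquaporin genes, which encode water channels, 12 were higher and 1, PIP2;4, was lower (0.39). With the trend on length and GC content removed, medians were 0.78 (chaperones), 0.70 (glucosinolate and myrosinase), 0.46 (mitochondrial) and 0.21 (aquaporins).

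Of 37 proteasome genes 23 were higher and 8 were lower (0.35). Of 19 in the regulatory particle, which unfolds substrates, 16 were higher and 2 were lower (1.06), whereas of 18 in the core particle, which cuts them, 7 were higher and 6 were lower (0.10), close to the 34.9% higher and 36.3% lower over all genes. AT2G32730, of the regulatory particle, had 35.0, 34.8 and 34.8 FPKM on polysomes, against 9.97, 10.2 and 10.9 FPKM in total RNA (1.66). AT1G53780, annotated as an ATPase of the same particle, was the lowest at -1.23, with 7.06, 6.46 and 6.94 FPKM on polysomes, against 17.2, 18.0 and 16.9 FPKM in total RNA.

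Histone messengers were poorly loaded almost throughout, as were short messengers generally. Over all genes 34.9% were higher on polysomes and 36.3% were lower. Of 1335 coding genes with a coding sequence of 300 to 449 nt, 1074 were lower and 18 were higher (median -0.70). Of 35 histone genes 31 were lower on polysomes and 2 were higher, with a median of -0.70. AT1G07660, annotated as a histone, had 41.3, 38.2 and 38.3 FPKM on polysomes, against 96.0, 99.6 and 97.2 FPKM in total RNA (-1.29), and RAT5, a histone H2A, lay at -1.22. The higher members, at 0.44 and 0.26, were AT1G06760 and AT2G30620, which have coding sequences of 825 and 822 nt against a median of 411 nt in the list. With the trend on length and GC content removed the list's median was -0.12, with 6 higher and 15 lower. Messengers of plant histones carry poly(A) tails, and many histone genes have near-identical copies. Cell cycle genes were higher in 9 of 12 tested and lower in 1, CYCD3;1 at -0.45 (median 0.73).

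Genes of stress, hormones and the clock were lower more often than higher, beside 34.9% higher and 36.3% lower over all genes. Of 26 rapid stress-inducible genes 14 were lower and 7 were higher (-0.23), of 20 genes of abscisic acid and osmotic stress 14 were lower and 3 were higher (-0.36), and of 10 auxin-inducible genes 8 were lower and 1 was higher (-0.43). JAZ8 was the lowest of the first list and SZF1, a zinc finger protein, the highest at 0.88. In the second list KIN1, a small cold-induced protein, lay at -1.45 and P5CS1, the proline synthesis enzyme, at 1.39. P5CS1 had 97.7, 103 and 99.3 FPKM on polysomes, against 38.0, 38.1 and 36.4 FPKM in total RNA. KIN1 and its neighbour KIN2 are close copies, and their reads may have been mixed. Of 16 clock genes tested 7 were lower and 0 were higher (-0.10), and this list's median was -0.39 with the trend on length and GC content removed and 0.01 with scaling to nuclear genes. With that scaling 9 of the abscisic acid genes were lower, and with the trend removed 2 of the auxin-inducible ones. AT3G54500, known as LNK2, a light-responsive clock gene, had 82.0, 79.6 and 76.8 FPKM on polysomes, against 199, 218 and 203 FPKM in total RNA (-1.37 ± 0.07, SE; adjusted p = 1.0e-13), with a coding sequence of 2043 nt.

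Of 22 decapping and decay genes, DCP5 included, 12 were higher and 5 were lower (0.30), beside 34.9% higher and 36.3% lower over all genes. The lower count was 3 without the total RNA library numbered 0, without the polysomal library numbered 1 or with scaling to nuclear genes, and with the trend on length and GC content removed 10 were higher and 8 were lower (0.06). The decapping scaffold VCS had 12.2, 12.7 and 12.7 FPKM on polysomes, against 4.56, 4.62 and 5.21 FPKM in total RNA (1.22), and the helicase gene AT3G61240 lay at 1.09. LSM1B (-0.90), of the small ring that binds shortened tails, and the deadenylase CAF1a (-0.73) were lower. All 5 genes of nonsense-mediated decay were higher (0.60), led by LBA1, the UPF1 helicase, at 0.82. With the trend on length and GC content removed 4 of them were higher and 1 was lower (0.36). Without the total RNA library numbered 2 or without the polysomal library numbered 2, 4 were higher and 0 were lower. Of 11 stress granule genes 9 were higher and 2 were lower (0.81): RBP47A lay at 1.20, and the lower ones were AT3G14100 (-0.60) and UBP1A (-0.44).

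**Figure D5:**
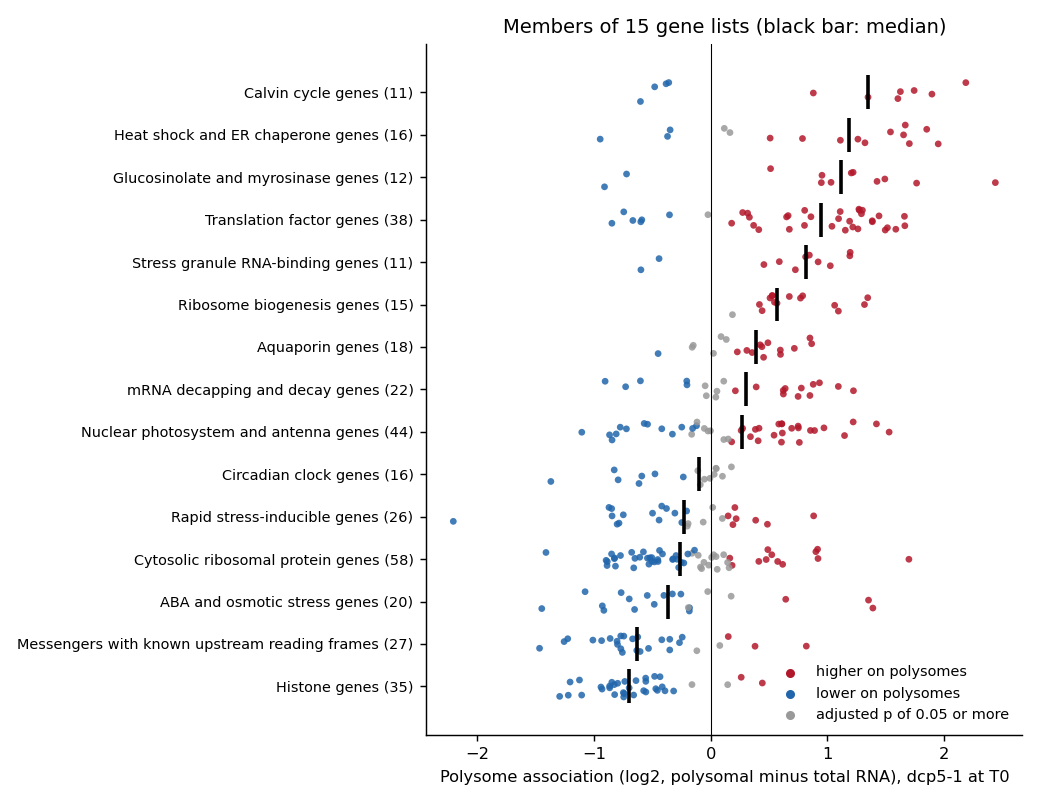
Polysome association (log2, polysomal minus total RNA, horizontal axis) of each tested member of 15 gene lists in dcp5-1 at T0, with the number of members in brackets and the median as a black bar. Red and blue points passed an adjusted p of 0.05 and grey points did not; list medians run from 1.35 for the Calvin cycle at the top to -0.70 for histones at the bottom.

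Large families and noncoding genes were counted next, beside 34.9% higher and 36.3% lower over all genes. Of 227 pentatricopeptide repeat genes, which encode organelle RNA-binding proteins, 72 were higher and 56 were lower (0.02), and of 168 F-box genes tested 35 were higher and 60 were lower (-0.11). The order of the F-box counts turned with scaling to nuclear genes, to 48 higher and 40 lower (-0.02). Of 864 annotated long noncoding RNAs 127 were higher and 181 were lower (-0.17), with 150 and 145 under that scaling. Of 220 pseudogenes 30 were higher and 103 were lower (-0.30). The trend on length and GC content was fitted on nuclear protein-coding genes only, by total transcript length. Its removal from noncoding RNAs and pseudogenes is therefore an extrapolation and does not show a length trend of their own. With that trend removed the long noncoding RNAs turned to a median of 0.36, with 233 of 587 higher and 96 lower. Among the repeat genes 54 were then higher and 98 lower (-0.17). RNAs without an annotated coding sequence were thus found in the polysomal libraries as well. AT2G26355, a long noncoding RNA of 828 nt, had 39.8, 38.8 and 40.7 FPKM on polysomes, against 6.85, 6.78 and 5.81 FPKM in total RNA (2.45 ± 0.08, SE; adjusted p = 3.4e-17). The pseudogene AT1G79245 had 33.3, 33.5 and 34.2 FPKM on polysomes, against 120, 124 and 129 FPKM in total RNA (-1.85). Of 5 precursors of trans-acting small RNAs 3 were higher and 0 were lower (0.41). TAS3 had 103, 99.4 and 102 FPKM on polysomes, against 58.5, 65.2 and 64.0 FPKM in total RNA (0.69), and TAS1C lay at 0.50.

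Chloroplast-encoded RNA was lower more often than nuclear messengers as a whole and varied between libraries. Of 134 such IDs 66 were tested, 3 were higher and 43 were lower (median -0.68), or 5 and 37 without the total RNA library numbered 2. Of 19547 nuclear coding genes 7100 were higher and 7240 were lower (-0.03). Of the 808 with a coding sequence under 300 nt, 40 were higher and 644 were lower (-0.92). Chloroplast and nuclear RNAs of like length were not compared. ATCG00800 had 44.0, 38.5 and 47.5 FPKM on polysomes, against 190, 164 and 176 FPKM in total RNA (-2.00). Yet chloroplast IDs made up 71.1%, 84.2% and 89.8% of summed FPKM in polysomal libraries, against 66.4%, 47.8% and 42.4% in total RNA (exact permutation test, two-sided, p = 0.1, the smallest that 3 against 3 libraries allow). ATCG00010 and ATCG00220 alone held 93.5% to 98.9% of the chloroplast sum on polysomes and 83.3% to 97.1% in total RNA. A sum of FPKM weighs very short genes heavily and is not a share of fragments. Of 162 mitochondrial IDs 9 were tested, 1 was higher and 2 were lower.

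Loading in the mutant was closely related to that in Col-0, measured in separate libraries. Across the 20964 genes the Spearman correlation of the associations in dcp5-1 and Col-0 at T0 was 0.91 and Pearson's was 0.85, as a description over genes that share length and base composition. In Col-0, 7390 genes were higher on polysomes (35.3%) and 7548 were lower (36.0%), or 71.3% in either direction. At 2-fold or more 5.61% were higher and 8.2% were lower in Col-0. Of the 1571 genes at least 2-fold higher in dcp5-1, 1547 (98.5%) were also called higher in Col-0, and of the 1064 at least 2-fold lower, 1024 (96.2%) were also called lower. At 2-fold or more in both, 985 genes were higher, which is 62.7% of the dcp5-1 and 83.7% of the Col-0 list, and 921 were lower, which is 86.6% of the dcp5-1 and 53.6% of the Col-0 list.

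The genotypes did differ in part, and the test of the difference in association called 1621 genes higher in dcp5-1 (7.73%) and 659 lower (3.14%). At 2-fold or more these were 23 (0.11%) and 6 (0.0286%). The counts were 988 and 660 with scaling to nuclear genes, and 1019 and 356 when fitted on the compared groups alone. Genes described above for a large value in dcp5-1 were chosen from libraries that also enter this difference. The difference was most one-sided among short messengers. Under 300 nt of coding sequence 137 of 808 genes were less depleted from polysomes or more enriched in dcp5-1 and 5 went the other way, with a median difference of 0.26. At 300 to 449 nt 130 of 1335 and 3 went these ways (0.16), at 450 to 599 nt 92 of 1599 and 22 (0.09), and at 600 to 899 nt 70 of 3261 and 134 (0.00). The median coefficient of variation in total RNA was 4.51% in dcp5-1 and 7.82% in Col-0, and the fragment length correction of the Col-0 libraries lay at 270 to 278 nt in polysomal and 256 to 260 nt in total RNA. Their part in these differences was not tested.

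Among the nuclear genes named here, the largest difference was that of ESM1, which modifies the breakdown of glucosinolates. It had 350, 334 and 342 FPKM on polysomes, against 97.5, 98.1 and 104 FPKM in total RNA of dcp5-1, an association of 1.76. In Col-0 it had only 8.31, 9.33 and 9.18 FPKM on polysomes, against 5.15, 5.57 and 4.13 FPKM in total RNA, an association of 0.75. The difference was 1.02 ± 0.10 (SE; adjusted p = 3.0e-06), and the level of the gene itself was many times higher in the mutant in both fractions. GLDP1 differed by 0.73 ± 0.08 (SE; adjusted p = 4.0e-06), with 700, 688 and 709 FPKM on polysomes, against 158, 194 and 176 FPKM in total RNA of Col-0 (1.99). PROPEP4 was less depleted in dcp5-1, by 0.56 ± 0.10 (SE; adjusted p = 0.0013), with 10.6, 11.4 and 13.3 FPKM on polysomes, against 66.9, 72.8 and 66.6 FPKM in total RNA of Col-0 (-2.45). SHD, at 0.57, and KIN2, at 0.51, went the same way.

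A smaller number of named genes were less associated in dcp5-1 than in Col-0. RAP2.6, a stress-induced transcription factor, lay at -0.85 in dcp5-1 and at -0.20 in Col-0, a difference of -0.65 ± 0.15 (SE; adjusted p = 0.0084). AT1G53780 differed by -0.43 and CRK42 by -0.37. DCP5 differed by -0.22 ± 0.06 (SE; adjusted p = 0.021), with 0.62 in dcp5-1 and 0.84 in Col-0. HSP60 (-0.05), CAB1 (-0.01), AT1G29950 (0.01) and TCTP (-0.01) had differences within their SE of 0.07 to 0.11, which does not show that they were equal. Upstream reading frame messengers as a list had a median difference of -0.01.

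After 15 min of NaCl the medians of the mutant followed the same general order of coding length, over a narrower range. At T15 in dcp5-1, 7053 genes were higher on polysomes (33.6%) and 6867 were lower (32.8%). At 2-fold or more these were 5.11% and 3.07%. The median association was -0.58 under 300 nt and 0.18 at 1500 to 2099 nt of coding sequence. The Spearman correlation with coding sequence length was 0.36 at T15, next to 0.56 at T0. TGG2 lay at 0.21 at T15, with 143, 137 and 136 FPKM on polysomes, against 122, 124 and 115 FPKM in total RNA, next to 2.44 at T0. DI21 lay at 3.08 at T15, with 113, 116 and 119 FPKM on polysomes, against 13.6, 12.5 and 12.5 FPKM in total RNA. The difference between times was not tested here.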

How the data were processed

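Seedling RNA was sequenced from 24 libraries, in 8 groups of genotype, time and fraction with 3 libraries each. The authors deposited 1 table of FPKM per gene. Bowtie and TAIR10 are named, per the submitters' processing notes, and the tool and annotation that assigned fragments to genes were not given in the sources used here. Low values were whole multiples of what 1 fragment is worth, within 0.1, for 98.6% to 99.1% of them, which gave the implied depth of 14600000 to 19080000 fragments and an effective transcript length. FPKM were treated as normalised values and not as counts. Sampling error is largest for low and short genes.

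The members and gene lists were chosen with earlier results of these data known. Genes that reached 1 FPKM in 3 or more libraries were kept, 1 was added and log2 values were fitted with limma 3.58.1 in R 4.3.3 (8 group means, 16 residual degrees of freedom, eBayes with trend and robust). P-values are two-sided, from limma, adjusted by Benjamini-Hochberg over the 20964 genes. The difference between genotypes was a contrast of the same fit. The fit was tested on simulated data. Named genes were DCP5, the 12 largest values in each direction among symbol-bearing nuclear coding genes with an adjusted p under 0.05, a mean of at least 10 FPKM, a transcript of at least 300 nt and no overlap of values between the polysomal and total RNA libraries, and then up to 2 members in each direction per list with a mean of at least 5 FPKM. Noncoding genes were named by the limits of the 12 largest values, up to 5 in each direction. Genes named outside this rule are so described or serve a check or a comparison.

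Features, coordinates and start contexts came from the RefSeq annotation of TAIR10.1, 1 transcript per gene. It matched 37792 of the 38088 IDs (99.2%). The dependence on transcript length and GC was estimated on nuclear protein-coding genes, with natural splines of 6 and 4 degrees of freedom. It was then removed from all nuclear genes with a transcript of at least 300 nt, noncoding ones included. Other settings were a pseudocount of 0.1, no filter, median-of-ratios scaling, scaling to nuclear genes, a test for changes beyond 1.5-fold, a fit on the compared groups alone, the column number as a block, and each library left out in turn. Python 3.11.15, numpy 2.4.6, pandas 2.3.3, scipy 1.17.1 and matplotlib 3.10.9 were used.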

Additional observations from a re-analysis of the deposited data

Results flagged for a closer look

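Among the genes named, 39 had an association that differed between dcp5-1 and Col-0 at T0 by the limma contrast of the difference (adjusted p under 0.05 over 20964 genes, 3 libraries a group and fraction). Over all 20964 genes 10.9% were called by this contrast, 7.73% higher and 3.14% lower in dcp5-1. Values are dcp5-1 minus Col-0 on the log2 scale, and their explanation was not tested. Many of these genes were named for an extreme value in dcp5-1, whose libraries enter the difference too.

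Among the genes named for large positive values the difference was 0.73 for GLDP1, 0.54 for TGG2, 0.56 for cpHsc70-2, 0.39 for VAR2, 0.36 for THIC, 0.35 for CAT2, 0.56 for ATSBT5.2, 0.36 for RABE1b, 0.50 for DHS2 and 0.56 for AVP1. Among those named for large negative values it was 0.45 for UPI, 0.56 for PROPEP4, 0.41 for MT3 and 0.45 for SDH8.

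In the translation machinery it was 0.36 for RP1, 0.25 for EIF4G, 0.25 for EIF4E, 0.42 for NUC-L1 and 0.38 for AT1G29880. In photosynthesis and carbon fixation it was 0.31 for ATPC1 and 0.45 for PRK. Chaperones and the proteasome showed 0.57 for SHD, 0.31 for CNX1 and 0.51 for AT2G32730. Stress genes showed 0.42 for SZF1, 0.28 for P5CS1 and 0.51 for KIN2. The histone gene AT1G07660 showed 0.32 and the helicase gene AT3G61240 of messenger decay 0.26.

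Glucosinolate breakdown and the root gene were also among them, with 1.02 for ESM1 and 0.30 for PYK10. RNAs that do not encode nuclear proteins showed 0.35 for TAS3, 0.53 for TAS1C, 0.48 for AT2G26355 and 0.95 for the chloroplast gene ATCG00800. The difference was negative for 4 genes: -0.22 for DCP5, -0.65 for RAP2.6, -0.43 for AT1G53780 and -0.37 for CRK42.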

How the results depend on the processing

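The counts of genes past the threshold moved most under a test against a fold of 1.5. It called 2565 genes higher and 1689 lower on polysomes in dcp5-1 at T0, 1829 and 991 in dcp5-1 at T15, 2218 and 2298 in Col-0 at T0, and 1 and 0 for the difference between genotypes. Fitted on the compared groups alone the difference counted 1019 higher and 356 lower, and with scaling to nuclear genes 988 higher. Leaving out 1 library at a time gave 6995 to 7073 higher and 7117 to 7252 lower in dcp5-1 at T0, 6690 to 6770 and 6346 to 6476 at T15, 7080 to 7192 and 7168 to 7354 in Col-0, and 1239 to 2212 and 466 to 815 for the difference. Among 9751 genes of at least 10 FPKM, association correlated with coding length at 0.68 and with level at -0.14 (Spearman). The cause was not tested.

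No label ties column numbers to replicates, and the main fit did not pair the libraries. Deviations of same-numbered libraries from their group means correlated at 0.036, 0.053 and 0.241 in dcp5-1 at T0. The values were 0.000794, -0.0265 and -0.0615 at T15 and 0.139, 0.123 and -0.180 in Col-0. They rest on deviations from means of 3 libraries, so they cannot show whether libraries were paired. Not every library correlated best with its own number. With the column number as a block, 7214 genes were higher and 7503 lower in dcp5-1 at T0, 6931 and 6698 at T15 and 7246 and 7444 in Col-0. The block left 1197 higher and 425 lower for the difference.

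Of the 86 genes named, all had the same direction and call in dcp5-1 at T0 under median-of-ratios scaling, no filter, pseudocount 0.1, the compared groups alone, the block and each library left out. Against a fold of 1.5, 16 of the 86 no longer passed, and with the trend on length and GC content removed MP did not. A limit to at least 600 nt, chosen after seeing the data, left 78 of these genes, all with the same call. Depth limits the counts below about 1 FPKM, and short transcripts rest on a length correction that differed between the fractions.

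Some lists changed their counts beyond those given with them. With the trend removed, 2 Calvin cycle genes were lower, 3 aquaporins were lower, 5 precursors of trans-acting small RNAs were higher and 47 pseudogenes were higher. For the precursors and pseudogenes that trend was extrapolated from protein-coding genes. With scaling to nuclear genes 33 pentatricopeptide repeat genes were lower. The mitochondrial count of 2 lower was 0 without the polysomal library numbered 2 and 1 without the polysomal library numbered 0 or the total RNA library numbered 0 or 2.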
